A study of Mus musculus with 8 samples.

Results

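The transcripts described here are the abundant long intergenic noncoding RNAs (lincRNAs) of the mouse pineal gland. They were chosen by their class and level: rows of the deposited expression table with the class lincRNA and a mean over all 8 libraries (the authors' Average column) of at least 5 FPKM. FPKM is the number of sequenced fragments scaled to the length of the transcript and to the size of the library. Of 53710 rows, 5385 had the class lincRNA and 94 of these reached the threshold. The names to be left out were Meg3, Rian, H19, RP23-47P3.3, Gas5 and the snoRNA host genes named Snhg. This removed 7 rows, Meg3, H19, RP23-47P3.3, Snhg6, Snhg12, Snhg18 and Snhg20, and left 87 members. Rian and Gas5 had no row that met the class and level. RP24-132G6.4, which the GENCODE M21 annotation names Snhg10, stayed in because the table lists it by its clone name, as it does 68 members. The level was therefore used in the choice and is only described. The difference between the groups was not used and was tested. A row high in only one group could still reach the threshold through that group alone, which is said where it applies.

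Pineal glands of male mice were pooled, and their total RNA was sequenced after ribosomal RNA had been removed, with 4 libraries of wild type (WT-11 and WT-21 to WT-23) and 4 of 5xFAD (5xFAD-1 to 5xFAD-3 and 5xFAD-21), in which order values are given. Each pool held 5 to 7 glands, and the mice were 5 months old at sampling, which took place at a zeitgeber time of 0.5 h, that is, after lights on. The 5xFAD mice carry human transgenes, APP among them, with familial Alzheimer's disease mutations under the neuronal Thy1 promoter. Wild type was C57BL/6 and came from another supplier, so supplier and genotype cannot be told apart.

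lincRNAs are annotated as noncoding transcripts from genes between protein-coding genes, although 13 of the 86 members found in M21 overlapped a protein-coding gene. As a class, lincRNAs are spliced or left whole. Some act as structural parts of RNA and protein complexes or of nuclear bodies, some are the primary transcripts of miRNAs, and many start beside a protein-coding gene and share its promoter region. The pineal gland is a neuroendocrine tissue of photoreceptor descent, whose identity depends on homeobox transcription factors such as Otx2.

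The members held 0.335 to 0.995% of the summed FPKM of a library. The number of reads behind each value is not in the table, so the spread between libraries is the measure of error used here. Of the wild type libraries, WT-22 stood apart. Xist, the RNA of the inactive X chromosome of female cells, was listed at 13.3 FPKM in WT-22 and at 0.0404 or less in the other 7 libraries, although all mice were stated to be male. The summed level of 10 pinealocyte markers, each above 0 in every library, was 1278 to 2918 FPKM in wild type and 2022 to 3292 FPKM in 5xFAD, so the markers of the labelled tissue were present throughout. The sum of 8 osteoblast markers, 7 of them above 0 in every library, ran from 108 in WT-22 to 2062 FPKM in WT-11 within the wild type group and from 53.1 to 464 FPKM in 5xFAD. In bulk tissue, fewer cells of a type and less RNA per cell cannot be told apart.

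A few members were far more abundant than the rest. Only 3 members had a mean of at least 1000 FPKM and 7 of at least 100 FPKM, while 44 lay between 5 and 10 FPKM, and the median of the members was 9.64 FPKM. The 3 most abundant, Rmrp, RP23-81C12.3 and RP23-81C12.1, made up 63.2 to 85.4% of the members' summed FPKM in a library. At the threshold, RP23-425N12.2 with 5.01 FPKM and RP23-285C18.2 and CAAA01116243.1 with 5.23 FPKM each were the last ones inside. RP23-190H11.5 with 4.96 FPKM, RP23-402K24.2 with 4.92 FPKM and RP24-287C2.2 with 4.91 FPKM were the first ones outside. The plot of levels by rank shows all values.

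**Figure D1:**
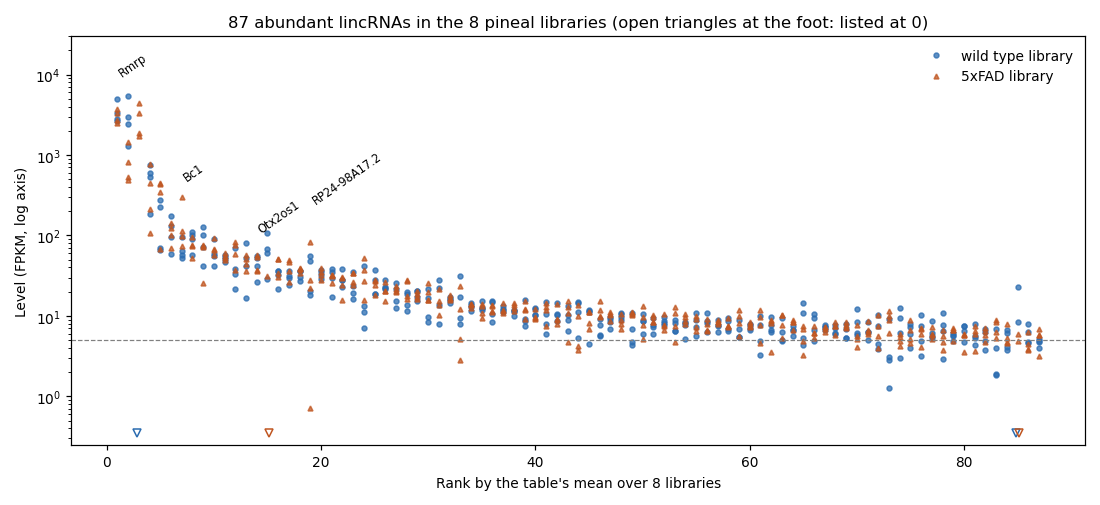
Level of each of the 87 members in each library, in FPKM on a log axis, ordered by the mean over the 8 libraries. Circles are wild type and filled triangles 5xFAD libraries, open triangles at the foot mark libraries listed at 0, and the dashed line is the threshold of 5 FPKM. A few members stand above 100 FPKM and most lie close to the threshold.

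Several of the most abundant members are short rows over known structured RNAs. Of the 86 members whose ID is in M21, 6 had under 300 nt of exon. Exon bases were shared on the same strand with a gene annotated as a small, miscellaneous or ribosomal RNA in 13. These 13 are not all short. They include long miRNA hosts such as Mirg, with 7292 nt of exon, and Neat1 and Rmst, which count only through miscellaneous RNA entries. In the sequences below, taken from the M21 transcripts on GRCm38, capitals mark the longest run shared with the small RNA named after each, except in Bc1, where they mark the longest run of A. The first 3 are shown because their bases are shared with another row of the table, and Bc1 for its internal run of A.
Rmrp (chr4:43492783-43493063, minus strand, 281 nt, shared with the 271 nt Rmrp ribozyme gene): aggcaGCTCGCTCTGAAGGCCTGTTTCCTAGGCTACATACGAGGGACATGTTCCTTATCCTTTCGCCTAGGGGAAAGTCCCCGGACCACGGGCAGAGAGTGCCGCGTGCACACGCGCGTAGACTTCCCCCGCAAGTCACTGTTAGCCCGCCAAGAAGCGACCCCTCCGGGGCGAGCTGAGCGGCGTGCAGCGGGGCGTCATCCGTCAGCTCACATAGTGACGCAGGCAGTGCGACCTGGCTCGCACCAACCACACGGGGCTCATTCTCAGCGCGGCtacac
RP23-132A3.5 (chr2:158359797-158359928, minus strand, 132 nt, shared with the snoRNA Gm23925): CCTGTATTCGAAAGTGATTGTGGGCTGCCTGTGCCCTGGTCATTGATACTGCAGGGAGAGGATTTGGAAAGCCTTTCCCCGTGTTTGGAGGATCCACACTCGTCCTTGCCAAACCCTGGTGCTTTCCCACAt
Gm29362 (chr12:87437684-87437816, minus strand, 133 nt, shared with the hairpin of Mir3068): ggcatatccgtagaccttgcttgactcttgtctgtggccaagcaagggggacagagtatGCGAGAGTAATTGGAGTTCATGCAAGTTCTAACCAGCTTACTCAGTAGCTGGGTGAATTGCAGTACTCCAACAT
Bc1 (chr7:144914470-144914637, plus strand, 168 nt): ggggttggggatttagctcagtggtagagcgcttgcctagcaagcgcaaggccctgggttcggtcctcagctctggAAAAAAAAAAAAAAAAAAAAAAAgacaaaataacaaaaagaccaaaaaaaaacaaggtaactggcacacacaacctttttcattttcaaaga

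Rmrp is the RNA of RNase MRP, an enzyme that cuts the precursor of ribosomal RNA. Its lincRNA row contains the whole ribozyme gene, as the 271 capitals above show. It was the most abundant member, at 4985, 3292, 2679 and 2819 FPKM in wild type, while the 5xFAD libraries stood at 3377, 3724, 2500.4 and 2756 FPKM. WT-11 was highest, 5xFAD-3 lowest, and the groups overlapped (log2 fold change in 5xFAD over wild type −0.13 ± 0.29 SE with n = 4 per group, adjusted p = 0.91 from limma). The row of the ribozyme gene stood 6.77 to 24.1 times higher. It was listed at 78752, 79304, 48479 and 49956 FPKM in wild type, while the 5xFAD libraries stood at 27705, 25196, 26336 and 48685 FPKM. The 2 rows of the same RNA thus did not keep 1 ratio, and in the ribozyme row 5xFAD-1 to 5xFAD-3 were the lowest libraries.

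RP23-132A3.5 lies in Snhg17 and shares 131 of its 132 bases with the snoRNA gene Gm23925. It stood at 184, 594, 748 and 529 FPKM in wild type, while the 5xFAD libraries stood at 783, 108, 213 and 451 FPKM. The snoRNA row had the same value within 0.01 FPKM in 7 of 8 libraries. In the remaining library, 5xFAD-1, the lincRNA row was the highest of all at 783 FPKM while the snoRNA row was listed at 0.44 FPKM. The groups overlapped, with a log2 fold change of −0.60 ± 0.65 (SE, n = 4 per group, adjusted p = 0.805 from limma).

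Gm29362, as M21 names this row listed under a clone name, lies within Alkbh1 and holds 74 of the 79 bases of the Mir3068 hairpin. M21 also has a snoRNA entry named Mir3068 of 136 nt that covers all of it, and the rows of both Mir3068 entries were listed at 0 throughout. Gm29362 was listed at 68.5, 28.9, 60.2 and 109 FPKM in wild type, at 30.9 FPKM in 5xFAD-21, and at 0 in the other 5xFAD libraries. The fit gave an adjusted p of 0.491 (limma), and no fold change is given because a listed 0 may be a failed estimate. The 5xFAD library that was not at 0 lay within the range of the wild type libraries. CAAA01116243.1, an RNA of 154 nt, was likewise listed at 0 in 4 libraries, WT-22, WT-23, 5xFAD-1 and 5xFAD-21, and at 4.85 to 22.7 FPKM in the others.

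Bc1 is a short neuronal RNA made by RNA polymerase III that binds the poly(A)-binding protein and represses translation in dendrites. It stood at 52.0, 57.8, 94.9 and 64.7 FPKM in wild type, while the 5xFAD libraries stood at 115, 74.6, 98.9 and 301 FPKM. 5xFAD-21 was 4.04 times the median of the other 7 libraries, and WT-22 lay among the 5xFAD libraries. The log2 fold change was 0.94 ± 0.40 (SE, n = 4 per group), with an unadjusted p of 0.0443 and an adjusted p of 0.611 (limma).

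A group of 3 members lies in one ribosomal RNA repeat on chromosome 17. RP23-81C12.1 (chr17:39843013-39846341) and RP23-81C12.3 (chr17:39846958-39848788) follow each other on the plus strand. Yam1 (chr17:39847113-39848035) lies within RP23-81C12.3 on the minus strand. A ribosomal RNA gene, listed as Rn18s-rs5, covers all of Yam1 on its strand and 1822 of the 1831 bases of RP23-81C12.3 on the other strand. Ribosomal RNA had been removed from the libraries, and its repeats have many near-identical copies, so the level of each row is uncertain.

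RP23-81C12.1 was listed at 0 in all 4 wild type libraries, whereas it reached 1892, 1723, 3293 and 4426 FPKM in 5xFAD. It was the only member past an adjusted p of 0.05 (adjusted p = 2.32e-08 from limma), and 0.043% of all 13953 features tested passed. No fold change is given against libraries listed at 0. A listed 0 may be a failed estimate and the p-value rests on these values, so it is no measure of a difference in the RNA. The row reached the threshold of 5 FPKM only through the 5xFAD libraries. Across the whole table, 1 row was at 0 in every wild type library and at 100 FPKM or more in every 5xFAD library, which is RP23-81C12.1. In the opposite direction there was also 1 row, Ttr, which encodes the thyroxine carrier transthyretin, at 9440.0 to 19630 FPKM in wild type and listed at 0 in every library of 5xFAD.

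RP23-81C12.3 stood at 5343, 2401, 2991 and 1309.6 FPKM in wild type, while the 5xFAD libraries stood at 529, 488, 823 and 1470.3 FPKM. 5xFAD-21 lay above WT-23, so the groups overlapped (log2 fold change −1.83 ± 0.49 SE with n = 4 per group, unadjusted p = 0.00467, adjusted p = 0.526 from limma). When the FPKM of the neighbours RP23-81C12.3 and RP23-81C12.1 were added, the sums were 5343, 2401, 2991 and 1309.6 in wild type and 2421, 2210.4, 4116 and 5897 in 5xFAD. The lowest sum was then WT-23 and the highest 5xFAD-21, and the sums of the groups overlapped. FPKM is scaled to length, and RP23-81C12.3 and RP23-81C12.1 have 1831 and 3329 nt of exon. A fragment therefore counts for less in RP23-81C12.1, the longer row, so the sum is not a level of both rows. Whether the groups overlap in the fragments of both rows was not tested.

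Yam1 stood at 223, 65.3, 69.7 and 278 FPKM in wild type, while the 5xFAD libraries stood at 433, 342, 452 and 66.9 FPKM. The 5xFAD-21 library lay with the lowest wild type libraries (log2 fold change 1.00 ± 0.71 SE with n = 4 per group, adjusted p = 0.726 from limma). The Rn18s-rs5 row on the same strand was lower, at 165, 27.1, 32.8 and 23.4 FPKM in wild type and 57.4, 52.8, 73.2 and 25.6 FPKM in 5xFAD. In both rows WT-21, WT-22 and 5xFAD-21 stood among the lower libraries, but WT-23 was lowest in Rn18s-rs5 and above the other wild type libraries in Yam1.

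**Figure D2:**
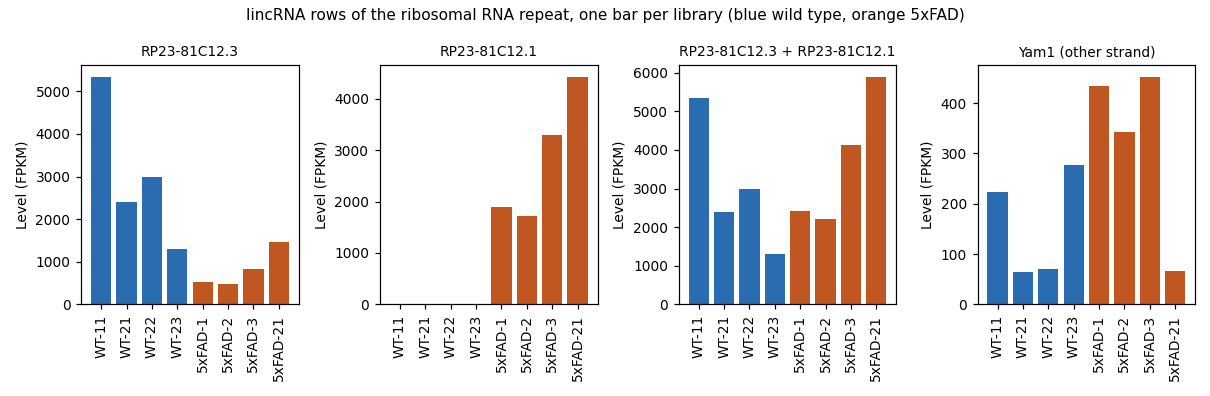
Levels in FPKM of the lincRNA rows of the ribosomal RNA repeat, with 1 bar per library, blue for wild type and orange for 5xFAD. RP23-81C12.1 has no bar in wild type. The sum of the FPKM of RP23-81C12.3 and RP23-81C12.1, which is not weighted by their lengths, overlaps between the groups.

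RP23-4P23.3 (Gm10076) and RP24-317M4.4 (Gm10419) completed the 10 most abundant members. RP23-4P23.3, a row of 384 nt on chromosome 14, stood at 56.6 to 111 FPKM in wild type, while the 5xFAD libraries stood at 52.6 to 96.4 FPKM (log2 fold change −0.25 ± 0.25 SE with n = 4 per group, adjusted p = 0.79 from limma). RP24-317M4.4, with 6859 nt of exon on chromosome 5, stood at 42.0 to 91.0 and 56.4 to 92.0 FPKM (log2 fold change 0.21 ± 0.24, adjusted p = 0.81). In both, the ranges of the groups largely coincided.

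Gm26870 lies in the cluster of satellite-like predicted genes at the start of chromosome 9 (chr9:3000282-3038313). It stood at 17.17, 31.3, 9.53 and 7.93 FPKM in wild type, while the 5xFAD libraries stood at 2.82 to 23.3 FPKM. High and low libraries occurred in both groups (log2 fold change −0.82 ± 0.67 SE with n = 4 per group, adjusted p = 0.752 from limma).

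Neat1 scaffolds the paraspeckles, nuclear bodies that hold RNA-binding proteins. It stood at 176, 131, 58.2 and 94.5 FPKM in wild type, while the 5xFAD libraries stood at 69.2, 144, 124 and 100.0 FPKM. WT-11 was highest and WT-22 lowest, so the whole range was found within the wild type group (log2 fold change −0.01 ± 0.35 SE with n = 4 per group, adjusted p = 0.995 from limma). Malat1, the neighbouring RNA of nuclear speckles and one of the most abundant lincRNAs of most tissues, was listed at 0 in all 8 libraries and is therefore no member.

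Of the 86 annotated members, 9 held at least 1 miRNA gene on their strand, 27 miRNA genes in all, of which 24 matched the RefSeq miRNA table. A long precursor of this kind is cut into hairpins, so its level says nothing direct about the mature miRNA, which was not measured. RP24-270A10.4 (6720427I07Rik in M21), singled out with RP23-32L21.4 after the values were seen, carries let-7a-1, let-7f-1 and let-7d, which share the seed that picks their targets. The mature sequences are from RefSeq (GRCm38.p6), with the seed, bases 2 to 8, in capitals.
mmu-let-7a-5p (in RP24-270A10.4): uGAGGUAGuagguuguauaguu
mmu-let-7f-5p (in RP24-270A10.4): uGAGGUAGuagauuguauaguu
mmu-let-7d-5p (in RP24-270A10.4): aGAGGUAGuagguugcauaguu
mmu-miR-135a-5p (in Rmst): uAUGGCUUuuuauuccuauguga
mmu-miR-101a-3p (in RP23-32L21.4): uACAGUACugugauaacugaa
mmu-miR-374b-5p (in Ftx): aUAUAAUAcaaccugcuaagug
mmu-miR-134-5p (in Mirg): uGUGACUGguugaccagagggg

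Mir124a-1hg, the host of the neuronal miR-124, was the most abundant of these hosts. It stood at 42.1, 72.3, 129 and 101 FPKM in wild type, while the 5xFAD libraries stood at 73.4, 26.0, 75.5 and 72.7 FPKM. 5xFAD-2 lay below every other library and WT-22 above (log2 fold change −0.48 ± 0.43 SE with n = 4 per group, adjusted p = 0.779 from limma). 5xFAD-2 also stood apart in 5 brown fat markers, of which 1 was above 0 in every library, with a sum of 730 FPKM against 0.508 to 6.86 FPKM elsewhere, and the part of this in its values was not tested.

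The let-7 host RP24-270A10.4 was much steadier. It stood at 20.7, 20.3, 15.2 and 17.1 FPKM in wild type, while the 5xFAD libraries stood at 16.2, 20.2, 18.9 and 17.1 FPKM. The log2 fold change was −0.01 with a 95% interval of −0.31 to 0.29 (limma, n = 4 per group).

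Mirg, a maternally expressed host of 14 of the miRNA genes at the imprinted Dlk1 and Meg3 region, stood at 8.49 to 15.4 FPKM in wild type and 11.1 to 13.7 FPKM in 5xFAD. Its log2 fold change was 0.04 with a 95% interval of −0.40 to 0.49. Ftx, an X-linked activator of Xist and the host of miR-421 and miR-374b, stood at 8.81 to 10.9 and 6.79 to 10.5 FPKM (log2 fold change −0.23, 95% interval −0.57 to 0.12). Ftx was at 10.5 FPKM in WT-22, the library with Xist, and within the range of the other wild type libraries. RP23-32L21.4, which carries miR-101a, stood at 5.56 to 10.9 and 6.45 to 9.91 FPKM (log2 fold change 0.03, 95% interval −0.48 to 0.54).

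Mir143hg (Carmn in M21), a lincRNA of smooth muscle beside the genes of miR-143 and miR-145, stood at 14.4, 10.96, 4.40 and 5.24 FPKM in wild type, while the 5xFAD libraries stood at 6.78, 4.90, 7.39 and 3.26 FPKM. WT-11 and WT-21 were highest and 5xFAD-21 lowest (log2 fold change −0.54 ± 0.41 SE with n = 4 per group, adjusted p = 0.743 from limma). The summed level of 6 smooth muscle and pericyte markers, all above 0 in every library, also had WT-11 and WT-21 highest, at 252 and 201 FPKM, and 5xFAD-21 lowest, at 71.3 FPKM. The same libraries were highest and lowest in the osteoblast sum, at 2062, 1631 and 53.1 FPKM, and in the meningeal fibroblast sum, at 2279, 1950 and 364 FPKM. The part of these cell types in the values of Mir143hg was not tested.

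Otx2os1 and Rmst are members that belong to developmental regulators. Otx2os1 (chr14:48668708-48870683) runs opposite to Otx2, a homeobox factor of the pineal gland and retina, and overlaps 154 of its exon bases. It stood at 26.1, 41.5, 55.2 and 51.9 FPKM in wild type, while the 5xFAD libraries stood at 57.2, 35.8, 37.1 and 54.3 FPKM. Otx2 stood at 111, 97.5, 184 and 132 FPKM in wild type and at 164, 132, 139 and 181 FPKM with 5xFAD. WT-11 and WT-21 were the lowest wild type libraries in both, and neither gene had the groups apart. The log2 fold changes were 0.10 ± 0.26 for Otx2os1 (SE, n = 4 per group, adjusted p = 0.923) and 0.26 for Otx2 (adjusted p = 0.75 from limma).

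Rmst is a neural lincRNA that binds the factor Sox2, and it also holds Mir135a-2 and Mir1251. It stood at 31.6, 24.5, 35.7 and 29.4 FPKM in wild type, while the 5xFAD libraries stood at 26.2, 49.1, 36.1 and 46.6 FPKM. 5xFAD-2, 5xFAD-3 and 5xFAD-21 lay above the wild type range, 5xFAD-3 only just, and 5xFAD-1 lay inside it (log2 fold change 0.35 ± 0.21 SE with n = 4 per group, adjusted p = 0.684 from limma).

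RP24-240G4.3 and RP24-240G4.4, both next to the nuclear receptor gene Nr2f2 and singled out after their values were seen, had the wild type libraries in a similar order. RP24-240G4.3 stood at 3.04, 9.51, 6.05 and 12.4 FPKM in wild type, while the 5xFAD libraries stood at 5.98, 4.87, 4.25 and 5.45 FPKM. RP24-240G4.4 stood at 2.92, 7.68, 6.51 and 10.7 FPKM and at 4.67, 3.80, 6.68 and 5.57 FPKM. In both, WT-23 was highest and WT-11 lowest, but 5xFAD-3 was the lowest 5xFAD library of the first and the highest of the second.

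Other members with names of their own had small differences between the groups. Lncpint, a p53-induced lincRNA, stood at 18.5 to 37.4 FPKM in wild type and 17.9 to 27.5 FPKM in 5xFAD. Dancr, which hinders differentiation of progenitor cells, stood at 10.1 to 11.7 and 11.4 to 14.7 FPKM, with a log2 fold change of 0.22 ± 0.11 (SE, n = 4 per group, adjusted p = 0.637 from limma). Fam120aos, B230354K17Rik, 2700046G09Rik, Ino80dos, Epb41l4aos and A330094K24Rik had means of 5.39 to 8.02 FPKM and log2 fold changes from −0.15 to 0.29, none past an adjusted p of 0.05.

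The comparison of 5xFAD with wild type asked which of these transcripts differ in the model of Alzheimer's disease. Apart from RP23-81C12.1, no member passed an adjusted p of 0.05 (limma). At an unadjusted p under 0.05, 6 members were on the higher side in 5xFAD (6.9%) and 2 on the lower side (2.3%), where 4.77% and 3.25% of all features tested were. Every 5xFAD library lay above every wild type library in 2 members, RP23-81C12.1 and RP24-242N1.1, which is 2.3% against 2.18% of all features, and in 0 members below, against 2.16%. Those shares are near the background. Among the 81 members with both group means at least 5 FPKM, 3 were on the higher side at an unadjusted p under 0.05 (limma). The others of the 6 reached the threshold only through 5xFAD, and no share of all features was computed under this rule. The median log2 fold change of the members was 0.07, against −0.01 over all features, and it was above 0 in 54 of 87 members (62.1%) against 49.2% of all features. For 69 of 87 members it was within 0.5 of 0.

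**Figure D3:**
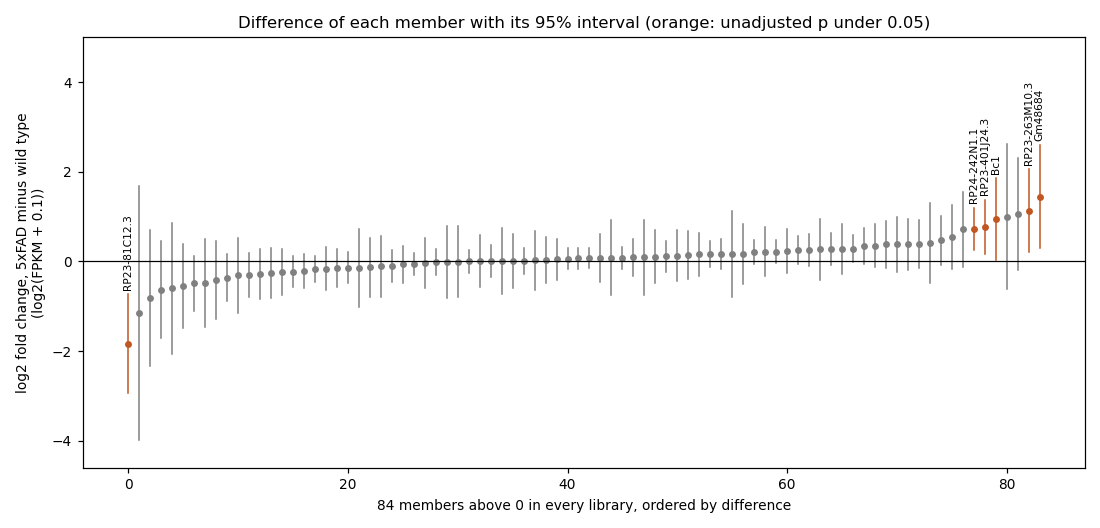
Log2 fold change, 5xFAD minus wild type, on the log2(FPKM + 0.1) scale, for the 84 members above 0 in every library, with 95% intervals from limma. The 6 orange members have an unadjusted p under 0.05, and none of the 84 passed an adjusted p of 0.05.

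RP24-242N1.1 (Gm5914, chr8:105624336-105637485), which runs through the start of Agrp and opposite to Ctcf, was the member with the clearest separation among those above 0 in every library. It stood at 5.76, 7.67, 9.11 and 5.58 FPKM in wild type, while the 5xFAD libraries stood at 15.3, 9.73, 9.94 and 11.8 FPKM. Only a small gap, from 9.11 to 9.73 FPKM, parted the groups (log2 fold change 0.73 ± 0.21 SE with n = 4 per group, unadjusted p = 0.00638, adjusted p = 0.529 from limma). Agrp itself, a hypothalamic neuropeptide gene, stayed at or below 0.37 FPKM. Ctcf, which shares 370 exon bases with it on the other strand, stood at 17.7 to 20.9 FPKM, with every 5xFAD library below every wild type library. The libraries kept the strand, but whether the counting used it is not given in the sources used here.

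RP23-401J24.3 (5330413P13Rik, chr2:131820006-131847683) stood at 4.29, 4.70, 10.97 and 6.83 FPKM in wild type, while the 5xFAD libraries stood at 10.9, 10.6, 11.1 and 10.3 FPKM. The 5xFAD libraries differed by less than 1 FPKM from each other, and WT-22 lay among them. The log2 fold change was 0.77 ± 0.27 (SE, n = 4 per group, adjusted p = 0.58 from limma). Without WT-22 it was 1.04 and the adjusted p was 0.0463 (limma). Leaving out the wild type library in the 5xFAD range parts the groups by that choice. It also raised the share of all features past an adjusted p of 0.05 on the higher side from 0.0358% to 0.558%.

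Gm48684 (its M21 name, chr13:107034284-107035217) stood at 2.84, 1.27, 9.21 and 3.13 FPKM in wild type, while the 5xFAD libraries stood at 6.14, 8.83, 10.1 and 11.6 FPKM. Here too WT-22 alone of the wild type libraries reached the 5xFAD range. The log2 fold change was 1.44 ± 0.51 (SE, n = 4 per group, adjusted p = 0.58), and 1.94 without WT-22 (adjusted p = 0.0546, limma). The wild type mean of Gm48684 lay under 5 FPKM. The row thus reached the threshold only through 5xFAD, and these p-values are no support for a difference.

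RP23-263M10.3 (4732414G09Rik, chr11:73015856-73018841) starts 167 nt from Camkk1, the gene of a calcium-dependent protein kinase kinase, and runs away from it. It stood at 1.92, 1.86, 6.93 and 4.01 FPKM in wild type, while the 5xFAD libraries stood at 8.87, 6.22, 5.34 and 8.37 FPKM. WT-11 and WT-21 were lowest and WT-22 was again within the 5xFAD range. The log2 fold change was 1.13 ± 0.41 (SE, n = 4 per group, adjusted p = 0.58), and 1.498 without WT-22 (adjusted p = 0.0826, limma). RP23-263M10.3 also had a wild type mean under 5 FPKM and reached the threshold only through 5xFAD. Its p-values are likewise no support for a difference.

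These counts depended on WT-22. Without it, 11 members had every 5xFAD library above every remaining wild type library, where 9.3% of all features had, and 0 members had every one below, where 7.16% of all features had. In this comparison 13 members had an unadjusted p under 0.05 on the higher side and 3 on the lower side, where 9.8% and 8.19% of all features had. WT-22 was the highest wild type library in 40 of 87 members (46.0%) and in 40.7% of all features. The marker lists also moved with WT-22. Against the median of the 8 libraries, its summed levels of these lists (4 of the 8 neuron markers and all 6 meningeal ones were above 0 in every library) stood on the log2 scale at 0.47 for the pinealocyte list, 0.56 for the neuron list, −1.74 for the osteoblast list and −1.01 for the meningeal fibroblast list. WT-11 and WT-21, lowest in RP23-263M10.3 and RP23-401J24.3, had the lowest pinealocyte and neuron sums, and the highest osteoblast and meningeal fibroblast sums. The part of the cell mixture in these values was not tested.

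**Figure D4:**
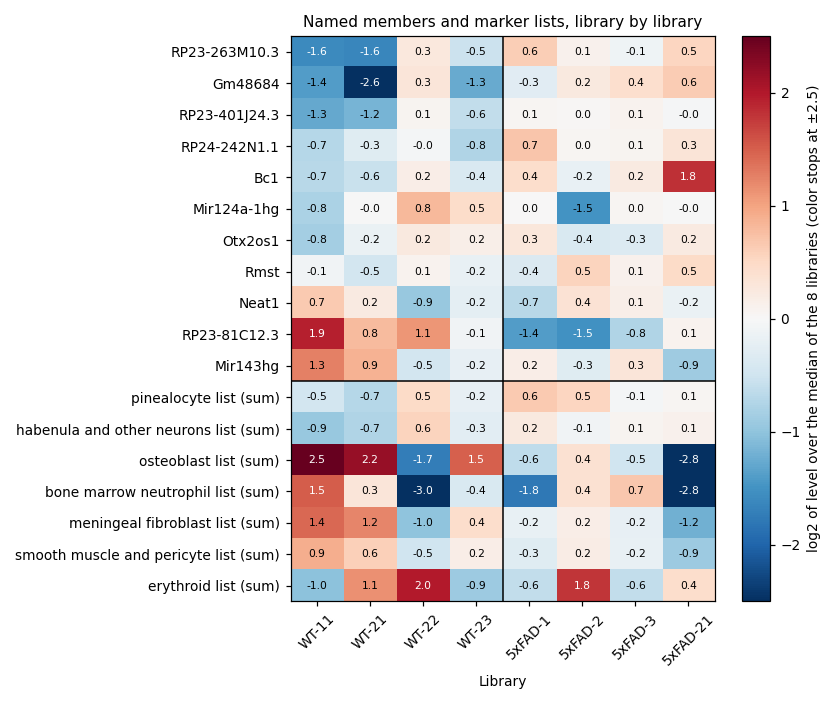
Log2 of the level in each library over the median of the 8 libraries, for 11 members and for the summed FPKM of 7 marker lists. WT-11 and WT-21 are low and WT-22 is at or above the median in RP23-263M10.3 and Gm48684, and the osteoblast list runs the other way in these libraries.

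The libraries also fall into sets by the share of unread bases in the study's sequencing summary, with 5xFAD-1 to 5xFAD-3 and WT-11 in one set and the others in the second. Within each set the log2 differences kept their direction for RP24-242N1.1 (0.97 and 0.68), RP23-401J24.3 (1.32 and 0.54), Gm48684 (1.49 and 1.76), RP23-263M10.3 (1.74 and 1.14), Bc1 (0.86 and 2.09) and RP23-81C12.3 (−3.16 and −0.52). These members were picked by an unadjusted p under 0.05 (limma) in the same 8 libraries, so the kept direction is no further support. In RP24-242N1.1, whose groups do not overlap, it was fixed in advance. Over all members, 58 of 87 had the same sign in both sets. Since each set holds a single library of 1 genotype, these are differences with no test. The GC content of the reads parted the genotypes fully, so a difference that follows it cannot be told apart from genotype.

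Each member was then set beside its nearest protein-coding gene. In 64 pairs both could be compared, and the log2 fold changes of members and neighbours were weakly related (Pearson r = 0.17, Spearman rho = 0.25 across the 64 pairs, which share the same libraries and of which some share a neighbour), with the same sign in 34 pairs. A head to head start within 1000 nt of a protein-coding gene on the other strand was found for 9 members, among them the neighbours of Setd1b, Kmt2e, Pik3r2, Fam120a, Ube2q1, Glrx5, Mmadhc and Camkk1. Across these 9 pairs the Pearson r was 0.65 and the rho 0.55, with the same sign in 7. The pair of RP23-263M10.3 and Camkk1 lay farthest out. Camkk1 stood at 5.13, 5.89, 9.87 and 8.06 FPKM in wild type, while the 5xFAD libraries stood at 9.29, 8.91, 7.03 and 8.26 FPKM. Like its neighbour it was lowest in WT-11 and WT-21, but its own log2 fold change was 0.25 (adjusted p = 0.77 from limma), and its highest library was WT-22. Setd1b, which encodes a histone methyltransferase and lies beside AC158114.3, had the largest difference among these 9 neighbours, a log2 fold change of −0.59 (adjusted p = 0.60 from limma), where AC158114.3 had −0.24.

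**Figure D5:**
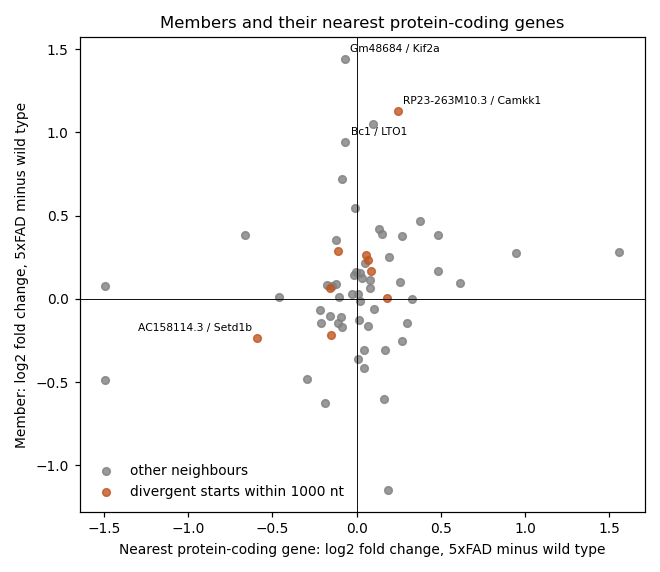
Log2 fold change, 5xFAD minus wild type, of each member against that of its nearest protein-coding gene, with 1 point for each of the 64 pairs. Orange points are the 9 pairs with head to head starts within 1000 nt. The points show little common direction, and the pair of RP23-263M10.3 and Camkk1 lies in the upper right.

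The promoter region of RP23-263M10.3, from 250 bases before to 50 bases after its start (chr11:73018792-73019091, minus strand, RefSeq on GRCm38.p6), is shown because it spans both starts. Capitals mark its 40 CG dinucleotides, against a median of 7 in all 32851 promoters of the table and 13.5 in the 48 promoters matched to 43 members. The 8 promoters of members with head to head starts that were matched, this one included, held 24 to 54.
RP23-263M10.3: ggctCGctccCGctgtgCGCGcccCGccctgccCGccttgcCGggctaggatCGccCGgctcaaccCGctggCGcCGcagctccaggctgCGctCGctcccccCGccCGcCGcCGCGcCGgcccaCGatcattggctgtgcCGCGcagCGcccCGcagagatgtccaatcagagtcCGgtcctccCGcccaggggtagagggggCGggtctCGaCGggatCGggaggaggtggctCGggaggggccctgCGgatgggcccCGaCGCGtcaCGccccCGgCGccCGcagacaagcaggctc
Of the 48 member promoters, 4 held TAATCC, the core bound by Crx and Otx2 (8.33% against 7.06% of all promoters, either strand), 2 held TGACGTCA, the cAMP response element (4.17% against 1.79%), and 5 held CACGTG, the E-box (10.4% against 7.15%). The promoters with TGACGTCA belonged to B230354K17Rik and RP23-245B21.3. Their levels were steady, at 6.27 to 8.95 and 6.71 to 8.44 FPKM over the 8 libraries.

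The members differed widely in how steady they were. The spread within groups, as SD over the mean, was under 20% in 27 members and over 50% in 11. RP23-105K2.3, RP23-245B21.3 and Tmem250-ps (its M21 name) were the steadiest, with 6.54%, 6.94% and 7.46%. RP23-105K2.3, for instance, stood at 7.20, 7.35, 6.62 and 7.66 FPKM in wild type, while the 5xFAD libraries stood at 6.83, 6.26, 7.21 and 7.35 FPKM, with a log2 fold change of −0.06 and a 95% interval of −0.30 to 0.18. CAAA01116243.1, RP24-98A17.2 and Gm26870 were the least steady, with 151%, 82.2% and 72.9%. RP24-98A17.2 stood at 18.2, 48.7, 20.5 and 55.7 FPKM in wild type, while the 5xFAD libraries stood at 0.721, 27.9, 21.9 and 83.7 FPKM. The lowest and the highest of the 8 libraries were then both 5xFAD libraries, 5xFAD-1 and 5xFAD-21. Bc1, RP23-81C12.3 and RP24-98A17.2 were the members most dominated by 1 library among those with a median above 0 in the others, at 4.04, 4.08 and 3.82 times the median of the other 7.

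A few further members, chosen after their values were seen, fill in the range. RP24-158O8.1 (Gm49472, chromosome 15) had one of the larger log2 fold changes, 1.05 ± 0.55 (SE, n = 4 per group, adjusted p = 0.643 from limma). It stood at 11.3, 7.07, 41.9 and 13.4 FPKM in wild type, while the 5xFAD libraries stood at 52.9, 15.8, 27.4 and 37.0 FPKM, so that WT-22 alone of the wild type libraries reached the 5xFAD range. RP23-185B22.1 (Gm45650, chromosome 8) stood at 33.0, 21.9, 70.8 and 37.9 FPKM in wild type, while the 5xFAD libraries stood at 83.7, 37.4, 59.3 and 76.6 FPKM. Here both WT-22 and WT-23 lay above the lowest 5xFAD library.

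RP23-52N2.1 (AW112010), an interferon-induced RNA of immune cells, went the other way within wild type. It stood at 10.7, 9.54, 4.81 and 6.71 FPKM in wild type, while the 5xFAD libraries stood at 5.38 to 7.47 FPKM (log2 fold change −0.27 ± 0.25 SE with n = 4 per group, adjusted p = 0.779 from limma). WT-11 was highest and WT-22 lowest, as they were in the summed level of 7 neutrophil markers of the bone marrow, all above 0 in every library, at 442 and 20.02 FPKM. Within wild type the osteoblast, meningeal fibroblast and smooth muscle sums had the same order of these 2 libraries, and in the neutrophil list WT-21, at 191 FPKM, lay below 5xFAD-2 and 5xFAD-3, at 203 and 247 FPKM. The sum of 4 microglia markers, all above 0 in every library, was highest in WT-21 and WT-11, at 90.6 and 82.6 FPKM. The part of any of these cells in its level was not tested.

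RP24-540G19.3 (Gm29650), the member on the Y chromosome, stood at 4.71 to 7.44 FPKM in wild type and 3.54 to 5.92 FPKM in 5xFAD, and its highest value was in WT-22, the library with Xist. RP23-204I16.2 (Gm26945) holds the whole of the 73 nt snoRNA Gm24899 and lies on the strand of Rian, whose gene body it overlaps and which was among the names to be left out. It stood at 4.03 to 7.90 and 4.64 to 8.77 FPKM. Counted over all 87 members, the highest library was WT-22 in 17, 5xFAD-1 in 16 and WT-11 in 14, and the lowest was WT-11 in 23, WT-21 in 18 and 5xFAD-2 in 16. The other libraries were lowest in 3 to 9 members each. No library was highest or lowest throughout.

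Beside the 274 other lincRNAs with a mean of at least 1 FPKM, the members were somewhat longer and steadier. Their median span in the genome was 8217 nt against 6210 nt, and their median exonic length 1796 nt against 1566 nt. A single exon was found in 19 of 86 members (22.1%) and in 17.6% of the others, a miRNA gene in 10.5% and 4.4%, an exonic length under 300 nt in 6.98% and 2.56%, and a head to head start within 1000 nt in 10.5% and 21.2%. The median spread within groups was 26.1% in the members, 32.0% in the other lincRNAs and 17.8% in protein-coding genes. These differences were not tested.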

How the data were processed

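Gene levels of 8 pineal gland libraries, 4 per genotype, were analysed, grouped by the labels. As deposited by the authors, values are FPKM per gene, made by trimming reads with Trimmomatic, aligning them to GRCm38.p6 (mm10) with STAR and normalizing with Cuffnorm against GENCODE M17 (versions not given in the sources used here). The authors' mean (Average) was used only to choose members. Depth is not in the table. The value log2(FPKM + 0.1) was fitted with limma 3.58.1 (trend on the mean, R 4.3.3) to all 13953 features with a mean of at least 1 FPKM, with genotype as the only term and Benjamini-Hochberg adjustment over all of them. Fold changes are on that scale and understate those of low genes. Libraries are pools, so p-values measure the spread between pools. On simulated data for this comparison over 13953 genes, 64 of 100 genes changed by 1 and 87 of 100 changed by 2 on the log2 scale were called, with 13 unchanged genes. Members, marker lists and tests were chosen with earlier results of these data known. Members described one by one were the 10 most abundant, those past an unadjusted p of 0.05, those with a gene symbol of their own, the 3 nearest the threshold, the 3 steadiest and least steady, and the 3 most dominated by 1 library. Others are said to be chosen after their values were seen. Positions and overlaps come from GENCODE M21, in which 86 of the 87 IDs were found, miRNAs and promoters from RefSeq. Alternatives covered pseudocounts, filters, scaling, sequencing set, replicate block, variance model, features fitted, GC content and leaving out each library. Some items named in the sources are not reported here.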

Additional observations from a re-analysis of the deposited data

Results flagged for a closer look

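In 72 groups of 4 libraries tested for a single distant value, 3 stood out, where chance gives about 1 in 20. In Mir124a-1hg, 5xFAD-2 was lowest at 26.0 FPKM while the other 5xFAD libraries lay between 72.7 and 75.5 FPKM, a gap of 0.943 of the group's range. In Gm29362, 5xFAD-21 was at 30.9 FPKM while the other 5xFAD libraries were listed at 0. In Epb41l4aos, a lincRNA beside Epb41l4a, 5xFAD-3 was highest at 9.29 FPKM while the other 5xFAD libraries lay between 7.22 and 7.43 FPKM, a gap of 0.895 of the range.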

How the results depend on the processing

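Depth is unknown, so the number of reads behind low values could not be weighed, and with 4 pools per group 1 library could decide a count. All 23 alternatives were run, those that need transcript sequences included. Without rows listed at 0 anywhere (84 members), no member passed an adjusted p of 0.05 in limma (0 higher, as for all features), 1 had an unadjusted p under 0.05 on the lower side (3.22% of all features), and 1 had every 5xFAD library above wild type (2.15%). With both group means at least 5 FPKM (81 members), 0 passed, 3 had an unadjusted p under 0.05 on the higher side, and 1 was apart. The share of all features under that rule was not computed, so these counts have no background beside them. The sequencing set as a term gave 4 members on the lower side at an unadjusted p under 0.05 (6.81% of all features), and array weights gave 15 on the higher side (8.04%). Leaving out 1 library gave 1 to 2 members past an adjusted p of 0.05 on the higher side (2 without WT-22, RP23-401J24.3 being added, where 0.558% of all features passed) and 0 to 1 on the lower side (1 without 5xFAD-21, Gm29362, whose other 5xFAD libraries are all listed at 0, so this call says nothing). At an unadjusted p under 0.05 it gave 3 (without WT-21, 2.42% of all features) to 13 (without WT-22, 9.8%) on the higher side, 10 without 5xFAD-2 (3.31%), and 2 to 4 on the lower side (4 without WT-11, 3.06%, or 5xFAD-3, 3.35%). Members apart between groups numbered 2 to 11 on the higher side (11 without WT-22, 9.3% of all features, 6 without 5xFAD-1, 3.59%, 5 without 5xFAD-2, 2.98%, and 4 without 5xFAD-3, 4.69%) and 0 to 4 on the lower side (4 without 5xFAD-3, 4.04%). The median log2 fold change stayed between 0.04 and 0.12 when 1 library was left out.

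With the replicate number as a block, 1 member passed on the higher side and 0 on the lower side (5 of all features passed), 7 and 3 had an unadjusted p under 0.05 (3.15% and 2.32% of all features), and the median was 0.07. The libraries themselves correlated at 0.874 to 0.973. For pairing, the deviations of each library from its group mean were correlated between the groups. Same-numbered libraries gave −0.05, 0.21, −0.31 and 0.23, and libraries of different number gave −0.39 to 0.35. No pairing by number was thus seen.

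Of 33 named members above 0 in every library, 10 changed sign under some alternative, all with an adjusted p over 0.05 in both fits. Rmrp was at 0.30 with quantile normalization. RP23-132A3.5 was at 0.030, RP23-4P23.3 at 0.089 and Epb41l4aos at −0.11 with the sequencing set. Neat1 was at 0.021 with equal protein-coding totals. Otx2os1 was at −0.033, Lncpint at 0.086 and Mirg at −0.021 with array weights. Leaving out 1 library took the log2 fold change from −0.23 to 0.064 for Rmrp, from −0.30 to 0.23 for Neat1, from −0.12 to 0.23 for Otx2os1, from −1.998 to 0.23 for RP24-98A17.2 (positive without 5xFAD-1), from −0.17 to 0.17 for Lncpint, from −0.12 to 0.17 for Mirg, from −0.080 to 0.094 for Epb41l4aos and from −0.041 to 0.27 for A330094K24Rik. The cause was not tested. With the nearest start site in place of the nearest gene body, 66 pairs gave a Pearson r of 0.18 and the same sign in 32.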
